A study of Mus musculus with 24 samples.

Results

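The miRNAs miR-451a, miR-144 and miR-486 are made in large amounts during red cell formation, and 7 mature forms of them were followed here in extracellular vesicles (EVs) of mouse serum: mmu-miR-451a, mmu-miR-144-3p, mmu-miR-144-5p, mmu-miR-486a-5p, mmu-miR-486b-5p, mmu-miR-486a-3p and mmu-miR-486b-3p. They were chosen by name, with earlier results of these data known, as 7 of the 1966 mature miRNAs in the count table. All animals were wild-type C57BL/6 mice, 14 to 16 weeks old, and per the study's methods all were male. The surgery groups had an open tibia fracture that was fixed with a pin under isoflurane with buprenorphine, and serum was taken 6 h (S6h), 24 h (S24h) or 72 h (S72h) later. Per those methods, the Control mice were the animals without surgery that the study ran beside S6h, with saline in place of the analgesic. The S24h and S72h mice received analgesia daily, and the saline mice that the study ran beside these later groups were not analysed here. Surgery, anesthesia and analgesia therefore cannot be told apart in any comparison with Control, nor can the set of animals for S24h and S72h. The study's methods state that its control sets did not differ statistically, which is why it kept 1 of them, and that comparison was not repeated here. Each group had 6 mice with 1 library each, and EVs were precipitated with ExoQuick ULTRA from clotted heart blood.

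As background, miR-144 and miR-451a are cut from a shared transcript that the erythroid factor GATA1 drives. The miR-451a precursor is too short for Dicer and is cut by Ago2, the slicing Argonaute protein, so its mature form runs from the 5′ arm into the loop. miR-144 is processed by Dicer in the usual way and leaves a 5p and a 3p arm. miR-486 lies in an intron of Ank1, which encodes red cell ankyrin, a protein that ties the membrane to the cytoskeleton, and it is also made in muscle. Lysis of red cells in a blood sample raises miR-451a, and its ratio to miR-23a-3p, a miRNA that red cells hold little of, is in common use as a measure of lysis.

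In the GRCm38 build, the hairpin of miR-144 lies on the plus strand at chr11:78073005-78073070 and that of miR-451a at chr11:78073170-78073241, with 99 bases between them. Neither overlaps an annotated protein-coding gene. Mir451b is annotated on the minus strand over the span of Mir451a and had 0 counts in all 24 libraries. Mir486 lies on the plus strand at chr8:23142555-23142682, and Mir3107, the hairpin of miR-486b, lies on the minus strand within the same span at chr8:23142573-23142662. Both fall in an intron of Ank1, which 12 coding transcripts span with no exon there, and both overlap the antisense gene Gm15816. Whether reads were counted by strand is not given in the sources used here. RefSeq sequences on GRCm38.p6 were matched for 3 of the 7 members. They are shown because they set apart the partners of the shared transcript, with the seed (bases 2 to 8, which pair with target mRNAs) in capitals:
miR-451a: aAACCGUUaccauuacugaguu
miR-144-3p: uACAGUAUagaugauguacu
miR-144-5p: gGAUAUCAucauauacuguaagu
No other of the 1738 mature sequences in that table shares a seed with any of these 3. The hairpins, with mature sequence in capitals, show where each form lies:
miR-451a hairpin: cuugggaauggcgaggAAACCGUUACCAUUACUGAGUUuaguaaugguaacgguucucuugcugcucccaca
miR-144 hairpin, 3p arm: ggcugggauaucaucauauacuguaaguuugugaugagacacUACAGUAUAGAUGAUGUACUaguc
miR-144 hairpin, 5p arm: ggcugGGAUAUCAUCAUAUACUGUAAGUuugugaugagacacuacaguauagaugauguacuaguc
The miR-451a form covers bases 17 to 38 of a 72-base hairpin. miR-144-3p is 20 bases long and miR-144-5p 23, while reads of 20 to 24 bases were selected before counting, so miR-144-3p stood at the lower edge of that window.

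Total counts per library were 63956 to 263211 in Control, 102568 to 471801 in S6h, 66652 to 143856 in S24h and 65017 to 245013 in S72h. Values are given as CPM, the counts scaled to a common library total, and where no count was seen in the smallest library the floor of 3 counts allows up to 46.9 CPM. The random adapter bases of the reads were trimmed and not used to count molecules, so such limits cover counting error only. A level of 10 CPM or more in 12 or more libraries was required for a test, which 252 of the 1966 miRNAs reached, and these took 99.7% of all counts. Among them were 6 of the 7 members. The seventh, miR-486b-3p, had counts in 10 of 24 libraries, at most 24 counts, and reached 10 CPM in 8.

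miR-486b-5p had the highest median of all miRNAs in Control, while miR-451a ranked 8 and miR-486a-5p ranked 12. The other arms were far lower: miR-144-5p ranked 77, miR-486a-3p ranked 83, miR-144-3p ranked 99 and miR-486b-3p ranked 223. Together the 7 members took 10.4 to 19.1% of the counts in Control mice, with a median of 13.6%. The median share was 11.6% in S6h (7.31 to 12.5%), 6.44% in S24h (2.98 to 12.2%) and 6.19% in S72h (4.22 to 17.1%). CPM values are shares of a fixed total. Fewer vesicles from red cells, less miRNA in each vesicle and a rise of other miRNAs cannot be told apart in these data. Per the study, ExoQuick precipitation may also carry some miRNAs associated with lipoproteins, and their part was not tested here.

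**Figure D1:**
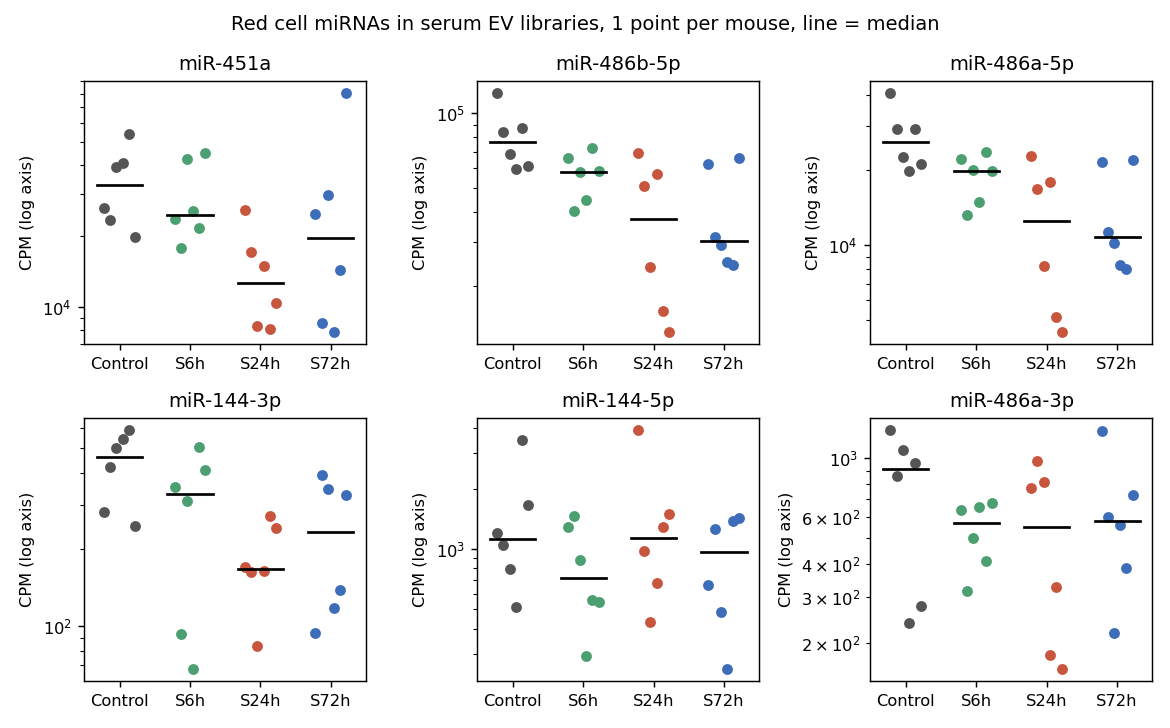
CPM of the 6 tested members (log axis) in the 4 groups, with 1 point per mouse and the group median as a line. miR-451a, miR-486b-5p, miR-486a-5p and miR-144-3p lie below the lowest Control mouse in 5 of 6 S24h mice, whereas miR-144-5p spans a like range in Control and S24h.

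The first question was whether the abundant members changed after surgery. miR-451a, miR-486a-5p and miR-486b-5p fell 24 h after surgery, 2.67-fold, 2.4-fold and 2.33-fold against Control. All 3 calls were lost without S24h replicate 3, 5 or 6, and the 2 miR-486-5p rows were not called when summed into 1. No member passed the test at 6 h or at 72 h. The differences were tested with edgeR's quasi-likelihood test over all 252 miRNAs, with Benjamini-Hochberg adjustment, and calls needed both an adjusted p below 0.05 and a difference of 1.5-fold or more.

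miR-451a, the Ago2-cut miRNA that limits signalling in red cell precursors, had 26218, 23328, 39286, 40803, 53936 and 19785 CPM in Control replicates 1 to 6 (median 32752, 6 mice). In S24h it had 25820, 17141, 8317, 14928, 8094 and 10448 CPM (median 12688). In every S24h mouse except replicate 1 the level was below the lowest Control mouse, and all 6 were below the Control median, but the groups overlapped. The log2 fold change was -1.42 ± 0.42 (SE, 6 mice a group) with an adjusted p of 0.024 (edgeR).

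In S6h, miR-451a had 17810 to 44701 CPM with a median of 24563, within which 4 of 6 mice lay below the Control median. Its log2 fold change against Control was -0.15 ± 0.41, adjusted p = 0.99 (edgeR). In S72h its values were 24733, 8580, 29716, 7821, 14289 and 80435 CPM. The S72h mice thus reached from below every Control mouse, in 3 animals, to above every Control mouse, in replicate 6, and the log2 fold change was -0.30 ± 0.41, adjusted p = 0.76 (edgeR). Without S72h replicate 6 it was -0.92.

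miR-486b-5p, the most abundant member, had 120800, 83886, 68721, 59688, 87239 and 61098 CPM in Control (median 76304). In S24h it had 68948, 50948, 23781, 56832, 15876 and 12999 CPM (median 37365). Again 5 of 6 S24h mice lay below the lowest Control mouse and replicate 1 lay among the Control values. The log2 fold change was -1.22 ± 0.39, adjusted p = 0.031 (edgeR), and the call ended, at -1.13, when the library sizes left out the members.

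miR-486a-5p had 19779 to 40667 CPM in Control (median 25802) and 22817, 16789, 8284, 17929, 5166 and 4477 CPM in S24h (median 12536). Its log2 fold change was -1.26 ± 0.37, adjusted p = 0.021 (edgeR), with replicate 1 the sole S24h mouse above the lowest Control mouse. Within S24h, both miR-486-5p rows split into 3 mice near the S6h levels (replicates 1, 2 and 4) and 3 mice far lower (replicates 3, 5 and 6).

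The 2 rows of miR-486-5p moved together, so they should not be read as independent measurements. How reads were assigned to the 2 hairpins was not examined. miR-486b took 73.5 to 76.0% of the reads of the pair in all 24 libraries (74.8% of the pooled reads), although the counts of the pair ranged from 1552 to 42500. The half-width of the 95% binomial interval of this share was 0.41 to 2.15 percentage points. The hairpins lie on opposite strands of the same bases, and the fixed split of about 3 to 1 held in every group, with group medians of 74.8 to 75.2%. When the reads of the pair were summed into 1 row, the log2 fold change at 24 h was -1.09 with an adjusted p of 0.062 (edgeR), which ended the call.

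Across all tested miRNAs, 11.9% were called at 24 h against Control, and 7.94% were called lower, against 3 of 6 members, all lower, of which the miR-486-5p pair shares its reads. The median log2 fold change of the 6 members was -1.24, beside -0.21 for all 252 miRNAs. The latter shifted with the scaling, from -0.21 to -0.03, and the members' direction was the same under each scaling except for miR-144-5p. DESeq2 called the same 3 members and also miR-144-3p, beside 19.8% of all tested miRNAs.

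The calls at 24 h depended on single mice. Without S24h replicate 3, 5 or 6, the number of members called was 0, and without Control replicate 1 or 5 it was 1. The direction was kept in every such fit: miR-451a had log2 fold changes of -1.68 to -1.13, miR-486a-5p of -1.52 to -0.89 and miR-486b-5p of -1.47 to -0.85. The weakest for each was the fit without S24h replicate 6, with adjusted p-values of 0.067, 0.090 and 0.13 (edgeR). Within S24h, replicates 3, 5 and 6 are those with the lowest values of all 3 miRNAs.

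miR-144-3p, the arm of the shared transcript that is held to act in erythroid cells on the antioxidant regulator Nrf2, had 281, 422, 503, 544, 591 and 248 CPM in Control (median 463) and 170, 163, 83.6, 165, 271 and 243 CPM in S24h (median 168). All S24h mice but replicate 5 lay below the lowest Control mouse. Its log2 fold change of -1.40 ± 0.54 was about as large as that of miR-451a. The adjusted p was 0.074 (edgeR), and it was 0.046 with DESeq2. It had 9 to 93 counts per library over all groups, and why the edgeR call was missed was not tested. At 72 h it had 93.9 to 391 CPM, a log2 fold change of -0.88 ± 0.53 and an adjusted p of 0.40 (edgeR).

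miR-144-5p comes from the other arm of the same hairpin. It had 514 to 3509 CPM in Control (median 1124) and 435 to 3934 CPM in S24h (median 1132), with 3 S24h mice on each side of the Control median. Its log2 fold change at 24 h was -0.10 ± 0.47, adjusted p = 0.91 (edgeR), and it was 0.013 when library totals replaced TMM scaling. Its highest values in Control (replicate 5, 3509 CPM) and S24h (replicate 1, 3934 CPM) each stood far above the rest of the group.

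miR-486a-3p, the passenger arm of miR-486a, had 238 to 1284 CPM in Control (median 910), 315 to 680 in S6h, 160 to 976 in S24h (median 550) and 218 to 1273 in S72h. Its log2 fold change at 24 h was -0.73 ± 0.51, adjusted p = 0.38 (edgeR). Control replicates 4 and 6 (238 and 276 CPM) lay apart from the other 4 Control mice, which had 860 CPM or more. miR-486b-3p was at 0 in 5 of 6 S24h mice and in 4 of 6 S72h mice, but also in 2 Control and 3 S6h mice, so that no difference was detectable at this depth.

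**Figure D2:**
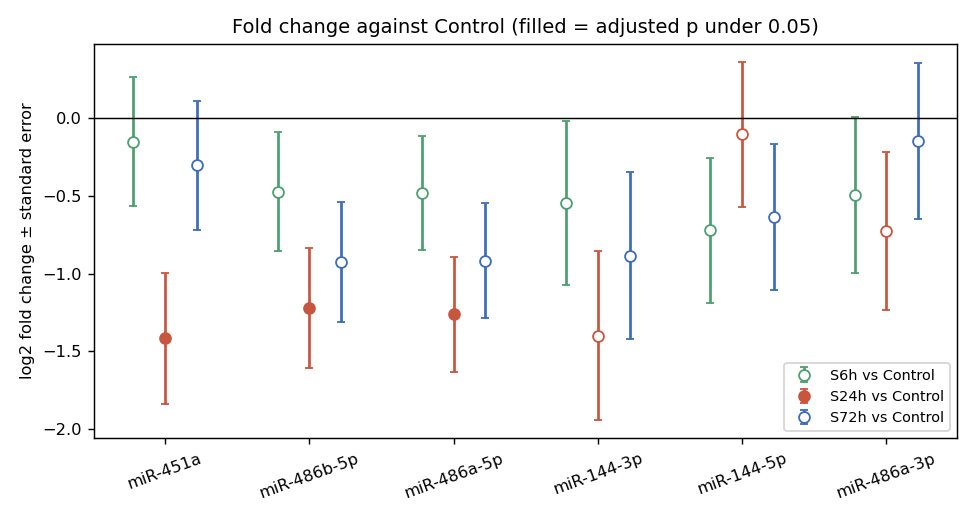
Log2 fold change against Control, with its standard error, for the 6 tested members at 6 h, 24 h and 72 h (edgeR, 6 mice a group). Filled points have an adjusted p under 0.05, which only the 3 members miR-451a, miR-486b-5p and miR-486a-5p at 24 h have.

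At 6 h after surgery, all 6 members had negative log2 fold changes against Control, from -0.72 for miR-144-5p to -0.15 for miR-451a, and none was called (adjusted p = 0.99 for each, edgeR). None had an unadjusted p under 0.05, and DESeq2 called 0. Of all 252 miRNAs, 0% were called by either tool and with edgeR 9 had an unadjusted p under 0.05. miR-486b-5p had a log2 fold change of -0.47 ± 0.38, with all 6 S6h mice below the Control median and 4 below the lowest Control mouse.

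At 72 h all 6 members again had negative log2 fold changes, with a median of -0.76 beside -0.06 for all tested miRNAs. None was called by edgeR, where 3.57% of all tested miRNAs were called and 1.59% were called lower, while 2 members had an unadjusted p under 0.05. These were miR-486a-5p, with -0.92 ± 0.37 and an adjusted p of 0.17, and miR-486b-5p, with -0.92 ± 0.38 and an adjusted p of 0.18. DESeq2 called both, with log2 fold changes of -0.96 and -0.98 and an adjusted p of 0.044 for each, beside 10.7% of all tested miRNAs that it called. miR-486b-5p had 62507, 31453, 29229, 25124, 24378 and 66167 CPM at 72 h, so that 4 of 6 mice lay below every Control mouse and replicates 1 and 6 lay within the Control range. All comparisons with Control share the same 6 Control mice.

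The surgery groups were then compared with each other. From 6 h to 24 h miR-451a fell by 1.27 on the log2 scale (SE 0.42, adjusted p = 0.034, edgeR), a 2.4-fold difference, with 5 of 6 S24h mice below the lowest S6h mouse and replicate 1 above the S6h median. It was 1 of 6 tested members called, beside 20.2% of all miRNAs called and 13.9% called lower, so the share of members called was close to that of all miRNAs. The call ended without S6h replicate 3, 4 or 6 or S24h replicate 3, 5 or 6, with log2 fold changes of -1.27 to -1.08 and adjusted p-values of 0.057 to 0.10 (edgeR). It also ended when library totals replaced TMM, with an adjusted p of 0.090.

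Over the same interval miR-486a-5p had a log2 fold change of -0.78 ± 0.37 (adjusted p = 0.15) and miR-486b-5p of -0.75 ± 0.38 (adjusted p = 0.19), with edgeR. miR-144-3p had -0.85 ± 0.54 and miR-144-5p had 0.62 ± 0.47, with adjusted p-values of 0.30 and 0.42 (edgeR). The latter pair, 2 arms of 1 hairpin, had opposite signs, and neither was called. Without S24h replicate 1, miR-144-5p had 0.0099, close to no difference. The S24h mice differ from S6h also in daily analgesia and in the control set they were run beside, which cannot be told apart from time.

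From 24 h to 72 h miR-451a had a log2 fold change of 1.11 ± 0.42, with an unadjusted p of 0.012 and an adjusted p of 0.26 (edgeR), and 4 of 6 S72h mice were above the S24h median. Without S72h replicate 6 it was 0.49 (adjusted p = 0.90, edgeR), and without 1 of the other mice it was 0.83 to 1.38. miR-486a-5p had 0.35 ± 0.37 and miR-486b-5p 0.30 ± 0.38. No member was called, by edgeR or DESeq2, and of all miRNAs edgeR called 0.397% and DESeq2 called 1.59%. The difference between S72h and S6h was -0.15 ± 0.41 for miR-451a and -0.45 ± 0.38 for miR-486b-5p. No member was called there either, by edgeR or DESeq2, and none had an unadjusted p under 0.05, beside 9.92% of all miRNAs called by edgeR and 14.3% by DESeq2.

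In order of median CPM, miR-451a stood at Control, S6h, S72h and S24h, and miR-486b-5p at Control, S6h, S24h and S72h. No pair of neighbours in these orders was called by the edgeR test, although for miR-451a the difference between S72h and S24h exceeded 2 standard errors and was called when no filter on low counts was used (adjusted p = 0.024, edgeR). The difference called for miR-486b-5p was that between Control and S24h, and for miR-451a those of S24h with Control and with S6h.

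The SD among mice also varied between groups, which was not tested. The SD of log2 CPM of miR-486b-5p was 0.39 in Control and 0.33 in S6h, but 1.02 in S24h and 0.65 in S72h. For miR-451a it was 0.56, 0.54, 0.66 and 1.26 in the same order. In Control, 238 of 252 tested miRNAs had a larger SD than miR-486b-5p and 206 had a larger SD than miR-451a. In S24h these numbers were 143 and 178, and in S72h they were 194 and 109. The median SD over all 252 tested miRNAs was 1.14 in Control, 0.87 in S6h, 1.23 in S24h and 1.13 in S72h.

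Since the members come from 2 loci, it was asked whether they varied together from mouse to mouse. Deviations of log2 CPM from the group mean were correlated over 24 mice for 6 pairs, with 100000 permutations within groups. miR-451a and the summed miR-486-5p reads correlated with Pearson's r = 0.57 (permutation p = 0.0076, adjusted p = 0.033) and Spearman's rho = 0.61 (permutation p = 0.0062, adjusted p = 0.035). Without the 2 mice farthest from the median of miR-451a, r was 0.42 (permutation p = 0.047). The summed miR-486-5p reads correlated with miR-486a-3p with r = 0.53 (permutation p = 0.033, adjusted p = 0.065) and rho = 0.55 (permutation p = 0.019, adjusted p = 0.038), and r without 2 mice was 0.40 (permutation p = 0.12).

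miR-451a correlated less with the partners on its own transcript. With miR-144-3p, r was 0.30 (permutation p = 0.19, adjusted p = 0.27) and rho 0.27 (permutation p = 0.23, adjusted p = 0.35). With miR-144-5p, r was 0.26 (permutation p = 0.27, adjusted p = 0.27) and rho 0.15 (permutation p = 0.53, adjusted p = 0.53). The arms of miR-144 themselves had r = 0.26 (permutation p = 0.24, adjusted p = 0.27) and rho = 0.20 (permutation p = 0.39, adjusted p = 0.46). These 3 pairs did not pass the test, and whether their r differed from that of miR-451a with miR-486-5p was not tested. miR-451a and miR-23a-3p, which is no red cell miRNA, had r = 0.62 (permutation p = 0.011, adjusted p = 0.033) and rho = 0.58 (permutation p = 0.012, adjusted p = 0.035), and r without 2 mice was 0.61. All of these values share the library total.

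**Figure D3:**
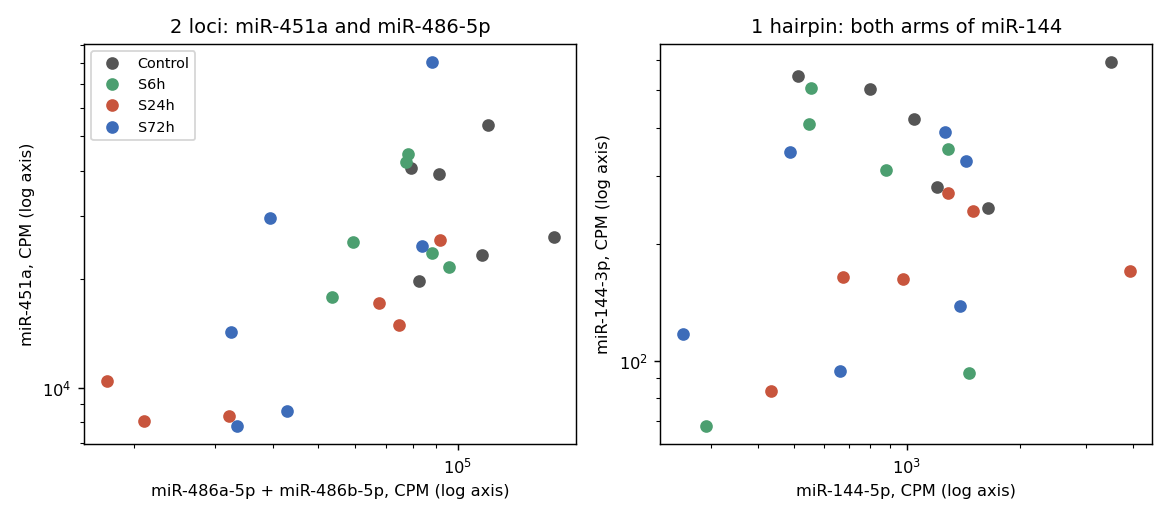
Left, CPM of miR-451a against the summed CPM of miR-486a-5p and miR-486b-5p, and right, CPM of miR-144-3p against miR-144-5p, both on log axes, with 1 point per mouse coloured by group. On the left the S24h replicates 3, 5 and 6 lie at the lower end, with S72h replicates 2 and 4 as low in miR-451a. S72h replicate 6 lies at the top, and on the right the 2 arms of miR-144 scatter widely.

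Ratios within a library do not depend on its scaling, and 4 of them were compared over the 6 pairs of groups with exact two-sided permutation tests (24 tests). None passed the adjustment, and the smallest adjusted p was 0.44. The log2 ratio of miR-451a to summed miR-486-5p was -1.71 ± 0.70 in Control (SD, 6 mice) and -1.70 ± 0.56 in S24h. The difference of 0.0069 had an exact permutation p of 0.98 (adjusted p = 0.98), and it was -0.18 to 0.16 with 1 mouse left out.

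The log2 ratio of miR-451a to miR-23a-3p was -0.25, -1.05, -0.63, 1.32, 0.50 and -1.18 in Control and -0.29, -1.58, -1.63, -1.03, -1.20 and -1.89 in S24h. Thus 5 of 6 S24h mice lay below the Control median, with a difference in means of -1.06 (exact permutation p = 0.037, adjusted p = 0.44). In S6h it was -0.78 ± 0.31 and in S72h -0.73 ± 0.60 (SD), and the differences from Control had adjusted p-values of 0.54 and 0.63 (exact permutation). The mean of every surgery group was below that of Control, and Control held the highest single value. Free hemoglobin or another direct measure of lysis was not used here.

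The log2 ratio of miR-451a to both arms of miR-144 was 3.27 ± 0.82 in S24h, 4.76 ± 1.02 in S6h and 4.23 ± 0.72 in Control (SD). Between S24h and S6h the difference was -1.48, with all 6 S24h mice below the S6h median (exact permutation p = 0.030, adjusted p = 0.44). The log2 ratio of miR-144-3p to miR-144-5p was -2.69 ± 0.90 in S24h and -1.54 ± 1.11 in Control. All 6 S24h mice lay below the Control median, with a difference of -1.15 (exact permutation p = 0.089, adjusted p = 0.45).

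**Figure D4:**
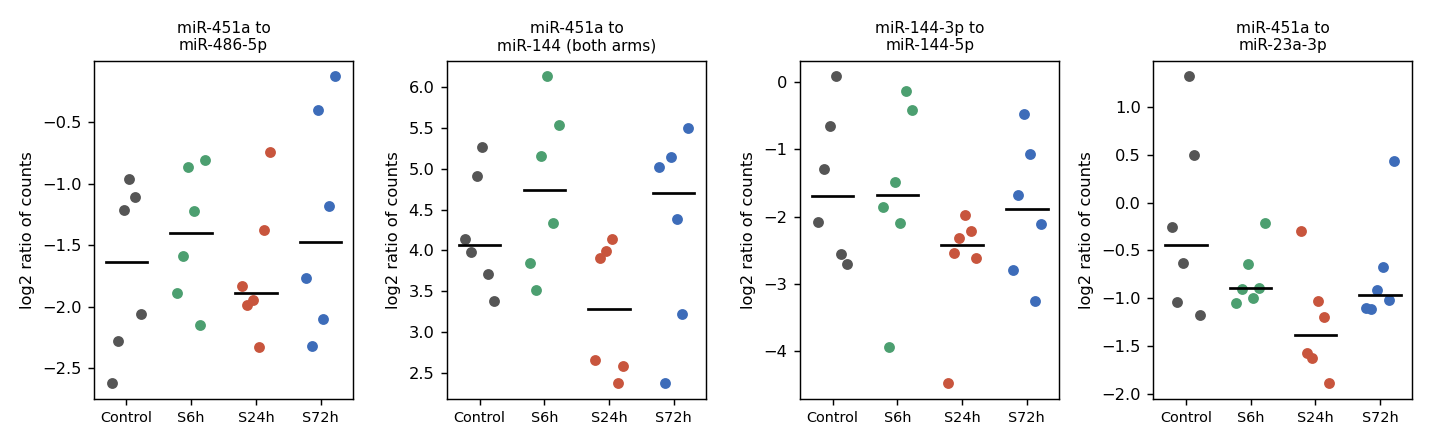
Log2 ratios of counts within each library for the 4 pairs, with 1 point per mouse and the group median as a line. All 4 ratios have their lowest median in S24h, and in each the S24h and Control mice overlap.

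Other miRNAs that red cells and their precursors hold were then set beside the members. Of a list of 15, 13 were tested, miR-363-3p was too low, and miR-96-5p was at 0 in all libraries. The list was chosen with earlier results of these data known, so its counts describe it and are no test. At 24 h against Control, 5 were called, all lower, beside 7.94% of all tested miRNAs called lower, and 11 of 13 had negative log2 fold changes, with a median of -1.20 beside -0.21 for all tested miRNAs. These were miR-106b-5p, miR-93-5p and miR-25-3p, which share a primary transcript in an intron of Mcm7, together with miR-22-3p and miR-16-5p.

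miR-16-5p, which acts on cell cycle messages and is itself in use as a reference in serum, had 9092 to 16792 CPM in Control and 3954 to 8681 in S24h. Its log2 fold change was -1.20 ± 0.29, adjusted p = 0.0070 (edgeR). miR-22-3p had 4597 to 16032 CPM in Control and 1680 to 4796 in S24h, with a log2 fold change of -1.69 ± 0.37 and an adjusted p of 0.0032 (edgeR). miR-93-5p had a log2 fold change of -1.43 ± 0.34, miR-25-3p of -1.29 ± 0.36 and miR-106b-5p of -1.70 ± 0.43, with adjusted p-values of 0.0066, 0.015 and 0.0079 (edgeR).

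Of the 8 others tested, miR-92a-3p had -0.15 ± 0.28 and miR-15b-5p -0.67 ± 0.28 at 24 h, with adjusted p-values of 0.78 and 0.097 (edgeR). The 5 miRNAs called against Control were also called lower against S6h (13.9% of all miRNAs), while at 72 h against Control only miR-16-5p was called (1.59% of all miRNAs were called lower), at -1.01 ± 0.29 (adjusted p = 0.046, edgeR). That last call was lost in 7 of 9 alternative fits and in 10 of 12 fits that left out 1 mouse, with log2 fold changes of -1.09 to -0.79 in the latter. Without S72h replicate 6, 3 of the list were called lower at 72 h: miR-16-5p (-1.08), miR-22-3p (-1.26) and miR-93-5p (-1.04). Against S6h, the calls of miR-25-3p and miR-106b-5p were lost with RLE size factors or column totals, which left 3, and that of miR-106b-5p also with DESeq2, with the replicate block and with no filter on low counts. With 1 mouse left out, miR-106b-5p lost that call in 10 of 12 fits (-1.48 to -1.04, kept only without S6h replicate 2 or S24h replicate 2) and miR-25-3p in 4 (S6h replicate 6 and S24h replicates 3, 5 and 6; -1.32 to -1.02). Against Control, miR-25-3p lost its call without S24h replicate 6 (adjusted p = 0.067, edgeR), and the other 4 kept theirs in all 12 such fits.

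**Figure D5:**
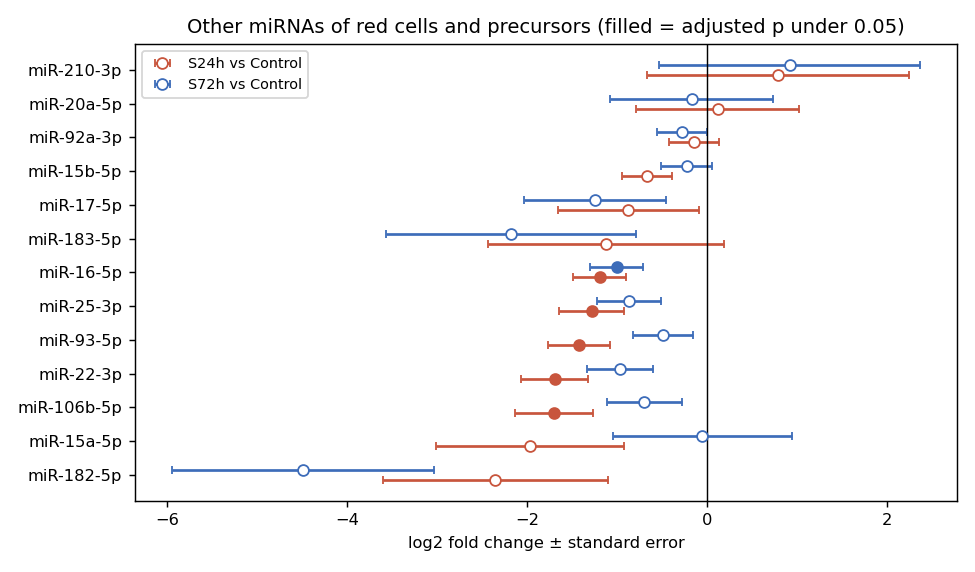
Log2 fold change against Control, with its standard error, for the 13 tested miRNAs of the wider red cell list at 24 h and 72 h (edgeR, 6 mice a group). Filled points have an adjusted p under 0.05, which 5 have at 24 h and miR-16-5p has at 72 h.

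Among the tested miRNAs other than the members themselves, those whose log2 CPM followed miR-451a most closely over the 24 libraries were miR-93-5p (r = 0.87), miR-30b-5p (0.84), miR-25-3p (0.82), miR-27b-3p (0.78) and miR-106b-3p (0.70). For miR-486b-5p they were miR-25-3p (0.81), miR-382-5p (0.77), miR-30b-5p (0.74), miR-24-2-5p (0.65) and miR-93-5p (0.65). Of these, miR-93-5p, miR-25-3p and miR-30b-5p stood in both lists. After removal of the group means the r of miR-93-5p with miR-451a was 0.81, and with miR-486b-5p it was 0.43. These values describe 24 libraries that share a total and the group differences.

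Markers of other sources of serum RNA were set beside these. Of 4 platelet miRNAs, miR-199a-3p was called lower at 24 h against Control, beside 7.94% of all tested miRNAs. The summed CPM of the platelet list was 5475 to 12790 in Control and 6661 to 11046 in S24h. No miRNA of the lists for leukocytes (5), liver (2) and skeletal muscle (4) was called at 24 h against Control, beside 11.9% of all tested miRNAs. The median log2 fold changes of the lists in that comparison were -1.15 for platelets (3 of 4 negative, and 0.64 ± 0.33 for miR-126a-3p, not called), -1.85 for liver and -0.95 for skeletal muscle (all 4 negative), and 0.37 for leukocytes, beside -0.21 for all tested miRNAs. Against S6h, 3 of 4 platelet and 3 of 4 skeletal muscle miRNAs were called lower at 24 h, beside 13.9% of all tested miRNAs, and miR-150-5p of the leukocyte list was called higher. The summed CPM of the muscle list was 60177 to 265409 in S6h, 34121 to 90196 in Control and 15599 to 43523 in S24h, and that of the liver list was 5770 to 170396 in Control and 8762 to 59729 in S24h. No marker of these 4 lists was at 0 throughout. Their part in the results for the red cell miRNAs was not tested.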

How the data were processed

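The 24 small RNA libraries came from serum EVs, 1 per mouse and 6 per group, with 2.3 ng of RNA each. The deposited table holds raw read counts per mature miRNA, which the authors made by trimming with cutadapt, aligning to GRCm38 (mm10) with Bowtie, selecting reads of 20 to 24 bases and counting with featureCounts on miRBase. SAMtools is named in the submitters' processing notes. All 24 columns were matched to samples by name, no pair of libraries was identical, and the replicates are separate mice.

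CPM was computed from column totals. One edgeR 4.0.16 quasi-likelihood model (R 4.3.3, TMM scaling) was fitted to the 4 groups over miRNAs with at least 10 CPM in 12 libraries, with Benjamini-Hochberg adjustment over all 252. DESeq2 1.42.0, other scalings and filters, the 2 groups alone, a replicate block, summing miR-486a and miR-486b, library sizes without the members and leaving out each mouse were the alternatives. Ratios had 0.5 counts added to each side. Named miRNAs are the members, miRNAs of the wider red cell list that were called, miR-23a-3p, the 5 most correlated with miR-451a and with miR-486b-5p, and marker lists; miR-92a-3p and miR-15b-5p were named after their values were seen. The members and lists were chosen with earlier results of these data known. Depth per library was 63956 to 471801 counts. Positions come from GENCODE M21 and sequences from RefSeq.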

Additional observations from a re-analysis of the deposited data

Results flagged for a closer look

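Of 44 sets of 6 mice examined (the 6 tested members, the 4 ratios and the summed share of the members, in each group), 2 held a mouse far from the others, and chance alone gives about 5% of sets, or 2.2. The log2 ratio of miR-144-3p to miR-144-5p was -4.48 in S24h replicate 1, and its gap to the nearest mouse was 0.750 of the range of the group. The other 5 S24h mice lay between -2.61 and -1.98. That mouse had the highest miR-144-5p of all S24h mice, at 3934 CPM, and 170 CPM of miR-144-3p.

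The log2 ratio of miR-451a to miR-23a-3p was 0.44 in S72h replicate 6, with a gap of 0.716 of the range, while the other 5 S72h mice lay between -1.12 and -0.68. The same mouse had 80435 CPM of miR-451a, the highest value in the series.

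The difference of miR-451a from Control was not the same at 24 h and at 6 h: the gap of -1.27 on the log2 scale passed the edgeR test. As both are measured against the same Control mice, this equals the comparison of S24h with S6h. Time and daily analgesia cannot be told apart in it, and it depended on the scaling and on single mice.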

How the results depend on the processing

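The fall of miR-451a at 24 h against Control was called in all 9 alternative fits, with log2 fold changes of -1.44 to -1.26. With miR-486a and miR-486b summed, miR-451a kept its call at 24 h, while the summed miR-486-5p had -1.09 and was not called. With library sizes that left out the members the call of miR-486b-5p ended at -1.13, its adjusted p just above the threshold. Between S24h and S6h, 0 members were called with RLE size factors (miR-451a, -1.01), column totals (-1.05) or the replicate block (-1.17, adjusted p = 0.051, edgeR). DESeq2 called 2 members at 72 h against Control, beside 10.7% of all miRNAs. With no filter on low counts, miR-451a was called between S72h and S24h (adjusted p = 0.024, edgeR). The share of all miRNAs called is not given here for the alternative edgeR fits, also those that left out 1 mouse. Their counts of members called therefore cannot be set against it. Signs turned for uncalled values near 0: miR-144-5p at 24 h against Control had 0.013 with column totals and 0.040 with the summed rows, and between S72h and S6h -0.058 with library sizes without the members and -0.10 with the summed rows. miR-486a-3p between S24h and S6h had 0.071 with DESeq2, 0.071 with RLE and 0.011 with column totals. The cause of these changes was not tested.

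Leaving out 1 mouse gave 0 to 3 members called at 24 h against Control and 0 to 1 between S24h and S6h. Log2 fold changes at 24 h against Control were -1.68 to -1.13 for miR-451a, -1.52 to -0.89 for miR-486a-5p, -1.47 to -0.85 for miR-486b-5p and -0.71 to 0.31 for miR-144-5p, and miR-451a had -1.53 to -1.08 between S24h and S6h. Uncalled values that turned sign were, between S72h and S6h, miR-451a (-0.77 to 0.038), miR-144-5p (-0.079 to 0.33) and miR-486a-3p (-0.059 to 0.55), between S72h and S24h, miR-144-5p (-0.73 to 0.074) and miR-486b-5p (-0.017 to 0.55), and at 72 h against Control, miR-486a-3p (-0.55 to 0.13). Ratios did so for miR-451a to miR-486-5p (-0.18 to 0.16 at 24 h against Control and -0.13 to 0.31 between S72h and S6h), miR-451a to miR-144 (-0.20 to 0.42 at 72 h against Control), miR-144-3p to miR-144-5p (-0.42 to 0.34 at 6 h against Control and -0.70 to 0.059 between S72h and S6h) and miR-451a to miR-23a-3p (-0.18 to 0.16 between S72h and S6h).

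Over all alternatives, 440 of 471 values of single miRNAs and ratios kept their sign and their side of the threshold, as did 769 of 852 with 1 mouse left out. Most of these values were uncalled in the main fit and had only to stay so, and the wider red cell list is among them. With 1 mouse left out, calls at 24 h against Control were lost in 4 of 12 fits for miR-451a. They were lost in 4 for miR-486a-5p and in 5 for miR-486b-5p. Of the wider red cell list, examined in the same way after seeing the data, miR-16-5p at 72 h against Control lost its call in 7 fits and miR-106b-5p between S24h and S6h in 5. Mice that share a replicate number did not deviate together (36 pairs, correlations of -0.29 to 0.21, 6 of 24 libraries closest to their own number), so the numbers were not taken as pairs. Counts of miR-144-3p, from 9 to 93 per library, limit what can be seen of it.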
